A study of Mus musculus with 15 samples.

Results

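The genes described here are 10 regulators of the G1 phase of the cell cycle: the CDK inhibitors Cdkn1a, Cdkn1b, Cdkn2a, Cdkn2b and Cdkn2c, the D-type cyclins Ccnd1, Ccnd2 and Ccnd3, and the kinases Cdk4 and Cdk6. They were chosen by symbol, and every probe set that carried exactly 1 of these symbols in the annotation of the array was taken, 26 of the 45101 probe sets in the table. Each gene was represented by its brightest probe set (mean of the 15 arrays), which gave 10 of 18193 genes tested. Ccnd2 had 7 probe sets, Ccnd1, Ccnd3, Cdk4 and Cdk6 had 3 each, Cdkn1a and Cdkn1b had 2 each, and Cdkn2a, Cdkn2b and Cdkn2c had 1 each.

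D-type cyclins are made in response to growth factors and bind Cdk4 or Cdk6, and the active kinase phosphorylates the retinoblastoma protein, which frees E2F factors to switch on S phase genes. The Ink4 proteins, among them those of Cdkn2a, Cdkn2b and Cdkn2c, bind Cdk4 and Cdk6 directly, while the Cip/Kip proteins of Cdkn1a and Cdkn1b bind cyclin-CDK complexes and are best known as inhibitors of Cdk2. In the adult liver hepatocytes rest outside the cycle and induce cyclin D1 when they re-enter it after injury.

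The study followed mouse mesenchymal stromal cells (MSC) through hepatogenic differentiation and its reversal, on Affymetrix arrays. MSC grew in low-glucose DMEM with 10% serum. HD28 cells are MSC that received HGF (20 ng/ml), bFGF (10 ng/ml) and nicotinamide (0.61 g/L) in IMDM over 7 days, and then oncostatin M at 20 ng/ml, the glucocorticoid dexamethasone at 1 µmol/L and an ITS+ premix. For dHD28 cells this second medium was replaced by that of the MSC. Hepatocytes were primary mouse cells in DMEM/F12 with 10% serum. MLC are such hepatocytes moved to the MSC medium with TGF-β1 at 10 ng/ml to day 7, 5 ng/ml to day 14 and 1 ng/ml to day 28, and then kept in that medium without it. The labels give no strain, age, passage or sex, and do not say whether replicates came from separate cultures or animals. All p-values then measure only the spread between these samples, which may be technical.

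Each of the 5 groups had 3 arrays, with values on a log2 scale and array medians between 4.84 and 4.95. A gene was called higher or lower in a limma model of the 5 group means where its groups differed 2-fold or more with an adjusted p under 0.05. Several arrays stood apart or lay close across labels, and whether a sample was mixed or a label exchanged was not tested. A list of 9 measured hepatocyte genes averaged 13.1 to 13.3 in the hepatocytes and 4.23 and 4.49 in HD28 replicates 1 and 2, but 11.7 in HD28 replicate 3, where albumin (Alb) stood at 13.80 against 3.38 and 3.74. In that array 8 stromal genes averaged 9.64, within the 9.52 to 9.84 of the other HD28, MSC, dHD28 and MLC arrays. Of the 9 arrays of MSC, dHD28 and MLC, 8 correlated best over all genes with an array of another group, and between these groups 0 of 18193 genes were called in MLC against MSC and 0 in dHD28 against MSC. The arrays also split by the signal of poly-A spike-in controls, added to the RNA before labelling, into 6 high (7.09 to 8.27) and 9 low (4.52 to 5.37), and each group held both kinds.

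Among the 10 genes, 7 differed over the 5 groups by the moderated F test (adjusted p under 0.05), beside 46.8% of all genes. The exceptions were Cdkn2a (adjusted p = 0.377), Cdkn2b (adjusted p = 0.0793) and Cdk6 (adjusted p = 0.271). In the other 7 the hepatocytes had the lowest mean, and their arrays did not overlap those of the next group. The plot of the values by array shows these levels.

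**Figure D1:**
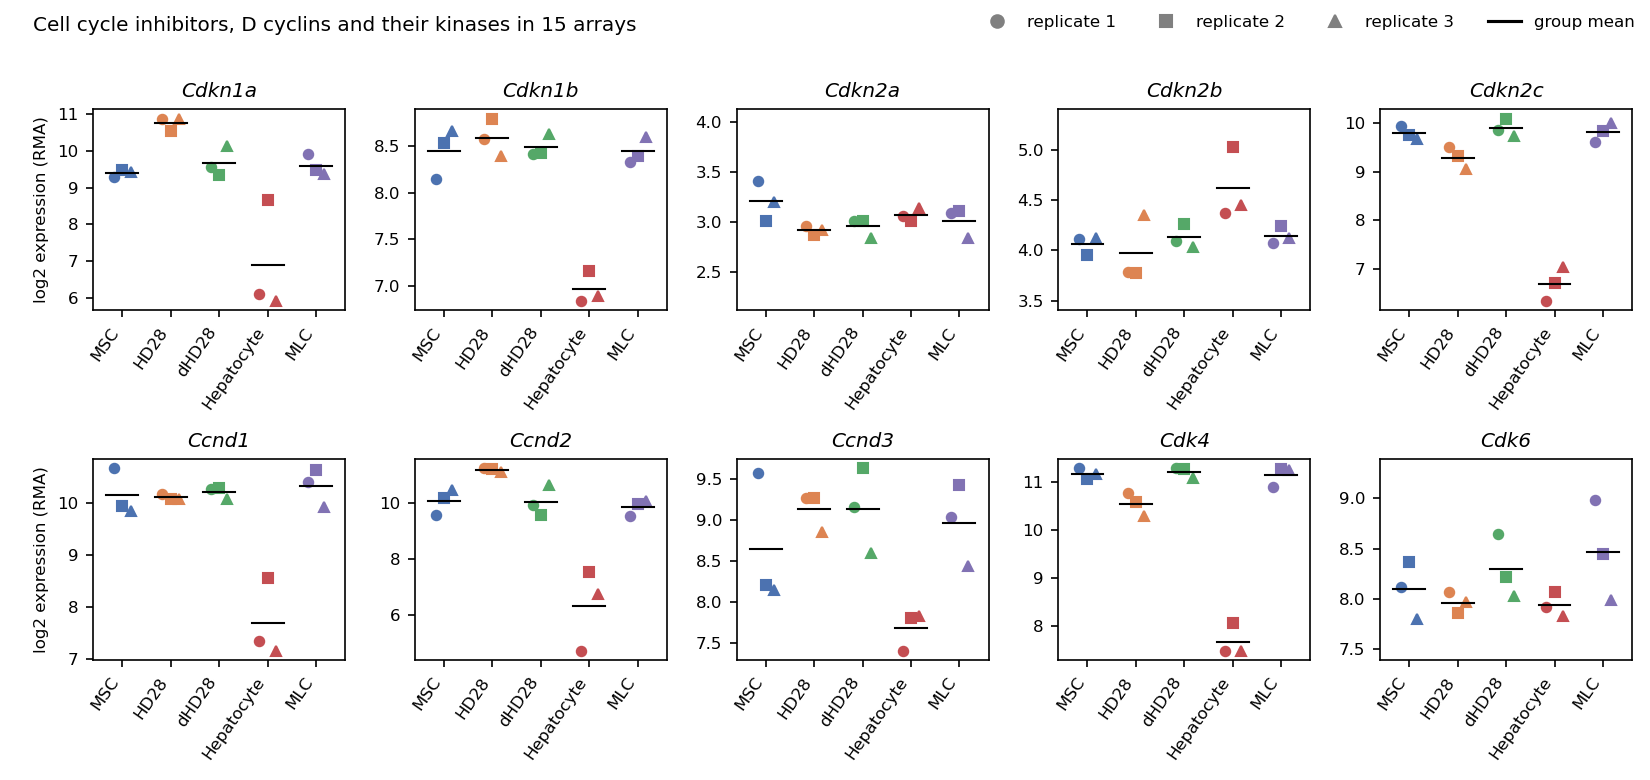
Log2 expression (vertical axes, RMA values) of each of the 10 genes in 15 arrays, with groups along the horizontal axes, marker shapes for the replicate number and a bar at the group mean. In Cdkn1a, Ccnd1 and Ccnd2 the second hepatocyte array lies above the other hepatocyte arrays, at 8.68, 8.55 and 7.53, and the HD28 arrays of Cdkn1a and Ccnd2 lie above those of every other group.

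Cdkn1a (chr17:29090979-29100722 in GRCm38.p6), the Cip/Kip inhibitor induced by p53 and by many differentiation signals, was highest in HD28 and lowest in hepatocytes. It stood at 9.28, 9.49 and 9.42 in MSC, at 10.87, 10.56 and 10.88 in HD28, and at 9.57, 9.35 and 10.14 in dHD28. The HD28 arrays all lay above the arrays of MSC and of dHD28, and the third dHD28 array was the highest of its group. The difference between HD28 and MSC was log2 1.37 ± 0.53 (SE, n = 3 per group), 2.59-fold, and was not called (adjusted p = 0.131). On return to MSC medium the difference was log2 -1.09 ± 0.53 (adjusted p = 0.221).

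The error of these Cdkn1a differences is pooled over all groups and includes the hepatocytes, which stood at 6.10, 8.68 and 5.91. With Hepatocyte replicate 2 left out, Cdkn1a was called higher in HD28 than in MSC (log2 1.37 ± 0.21, adjusted p = 0.00155). It was then called lower in dHD28 than in HD28 (log2 -1.09 ± 0.21, adjusted p = 0.0051). Without Hepatocyte replicate 1 neither difference was called (adjusted p = 0.11 and 0.19). Cdkn1a was also called in a fit of only the arrays compared, with adjusted p = 0.00839 for HD28 against MSC and adjusted p = 0.0341 for dHD28 against HD28. Leaving out HD28 replicate 3 gave log2 1.32 (adjusted p = 0.242) for HD28 against MSC. A second, dimmer probe set of Cdkn1a showed the same order, with 8.42 ± 0.12 (SD, n = 3) in HD28 and 7.51 ± 0.03 in MSC, 1.88-fold (adjusted p = 0.0481 over all probe sets), under the fold limit.

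Against MSC, Cdkn1a was 5.67-fold lower in hepatocytes (log2 -2.50 ± 0.53, adjusted p = 0.00165), and without Hepatocyte replicate 2 the difference was log2 -3.40. In MLC it stood at 9.91, 9.48 and 9.36 and was 6.44-fold higher than in hepatocytes (adjusted p = 0.000952). HD28 exceeded hepatocytes 14.7-fold, the greatest distance between 2 groups for this gene.

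Cdkn1a has a pair of start sites in the RefSeq promoter table of GRCm38.p6, both on the plus strand of chromosome 17. Their upstream sequences are printed because the gene was followed beside the p53 targets listed further on, together with that of Cdk4, the kinase of the D cyclins. Each run holds the 250 bases before the start, 5′ to 3′. Capitals mark matches, on either strand, to a pair of p53 half-site cores (CATG, any 6 bases, CATG), the E box (CACGTG) and the GC box (GGGCGG), which do not overlap each other here.
Cdkn1a, upstream start, chr17:29090729-29090978: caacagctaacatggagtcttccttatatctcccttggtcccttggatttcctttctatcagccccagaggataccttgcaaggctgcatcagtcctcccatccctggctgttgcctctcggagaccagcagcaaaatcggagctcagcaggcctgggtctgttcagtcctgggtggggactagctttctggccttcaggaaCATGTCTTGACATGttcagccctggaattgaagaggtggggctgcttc
Cdkn1a, downstream start, chr17:29093519-29093768: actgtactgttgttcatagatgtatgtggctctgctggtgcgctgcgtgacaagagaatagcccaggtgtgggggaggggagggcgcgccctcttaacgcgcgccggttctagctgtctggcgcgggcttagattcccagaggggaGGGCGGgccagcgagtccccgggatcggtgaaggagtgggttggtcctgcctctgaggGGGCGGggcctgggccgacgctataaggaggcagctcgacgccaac
Cdk4, chr10:127063285-127063534: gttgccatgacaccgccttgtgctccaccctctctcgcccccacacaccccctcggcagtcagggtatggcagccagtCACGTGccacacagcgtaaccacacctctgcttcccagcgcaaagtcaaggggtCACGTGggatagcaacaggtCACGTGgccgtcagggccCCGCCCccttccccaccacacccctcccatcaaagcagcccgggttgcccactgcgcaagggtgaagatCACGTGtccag
The window of the upstream Cdkn1a start held the p53 core pair 48 bases before the start, a match found in 0.49% of the 32851 windows of the same length. That of the downstream start held 2 GC boxes, 104 and 46 bases before it, where 32.7% of windows held at least 1. The Cdk4 window held 4 E boxes, the site that Myc and related factors recognise, at 172, 118, 98 and 11 bases before the start, and a GC box at 80 bases. An E box was found in 6.02% of all windows. No window of the 8 genes with a table entry (12 windows) matched the glucocorticoid element searched (GNACA, any 3 bases, TGTNC, in 0.387% of all windows) or the E2F sites searched (TTTGGCGC, in 0.417%, and TTTCGCGC, in 0.256%). A match is a description of letters and not evidence of binding.

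Cdkn1b (chr6:134920401-134925525), the Kip inhibitor that holds resting cells out of the cycle, was level across the stromal groups. Its arrays lay between 8.15 and 8.66 in MSC, 8.40 and 8.79 in HD28, 8.41 and 8.63 in dHD28, and 8.33 and 8.60 in MLC, so that all 4 groups overlapped. HD28 and MSC differed by log2 0.14, with a 95% interval from -0.22 to 0.50. The hepatocyte arrays, at 6.83, 7.16 and 6.88, lay below all of these. The difference from MSC was 2.80-fold (log2 -1.49 ± 0.17, adjusted p = 7.71e-06), and MLC exceeded hepatocytes 2.79-fold (adjusted p = 7.76e-06). Centring on housekeeping genes put these differences under the fold limit, at log2 -0.88 and 0.83. The mean over probe sets also ended the call against MSC (log2 -0.97). The centring shifted the median over all genes in Hepatocyte against MSC from 0.04 to 0.64. The second Cdkn1b probe set was under the lower quartile of its array in 6 of 15 arrays and was not called in these comparisons.

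Cdkn2c (chr4:109660876-109666756) encodes Ink4c, an inhibitor of Cdk4 and Cdk6, and its single probe set followed Cdk4. It stood at 9.93, 9.75 and 9.68 in MSC and at 9.49, 9.32 and 9.05 in HD28, with no overlap but a difference of log2 -0.50 ± 0.19 that was not called (adjusted p = 0.123). In dHD28 it was at 9.86, 10.09 and 9.74, above every HD28 array (log2 0.61 ± 0.19, adjusted p = 0.0499), under the fold limit. HD28 replicate 3 had the lowest HD28 value, and without it the differences were -0.38 (adjusted p = 0.327) and 0.49 (adjusted p = 0.176). In hepatocytes Cdkn2c stood at 6.34, 6.70 and 7.03, 8.55-fold under MSC (log2 -3.10 ± 0.19, adjusted p = 5.96e-08), and the MLC arrays overlapped those of MSC, 8.72-fold above hepatocytes (adjusted p = 5.41e-08).

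Cdkn2a, the locus of Ink4a and Arf, and Cdkn2b, which encodes Ink4b, lie side by side (chr4:89274473-89294619 and chr4:89306289-89311032) and were dim in every group. The Cdkn2a probe set, which does not separate Ink4a from Arf, ranged from 2.84 to 3.41 and lay under the lower quartile of its array (3.43 to 3.70) in all 15 arrays. It gives no level that could be told from background, and the table holds no detection calls. Cdkn2b ranged from 3.78 to 5.03. Its hepatocyte arrays, at 4.37, 5.03 and 4.46, lay above all other arrays, of which HD28 replicate 3 was the highest at 4.35 against 3.78 in both other HD28 arrays. The difference from MSC was log2 0.56 ± 0.19 (adjusted p = 0.031), under the fold limit, and it was called only when arrays were centred on housekeeping genes (log2 1.16, adjusted p = 0.000298) or with no fold limit.

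Ccnd1 (chr7:144929931-144939831), the D cyclin that growth factors induce in most adherent cells, did not differ measurably between HD28 and MSC. It stood at 10.66, 9.93 and 9.84 in MSC, 10.18, 10.08 and 10.08 in HD28, 10.27, 10.28 and 10.08 in dHD28, and 10.40, 10.63 and 9.93 in MLC. The HD28 arrays lay inside the range of the MSC arrays, and the difference was log2 -0.03 with a 95% interval from -0.73 to 0.66. Hepatocytes, at 7.34, 8.55 and 7.16, were 5.51-fold lower than MSC (log2 -2.46 ± 0.32, adjusted p = 3.02e-05). MLC exceeded hepatocytes 6.21-fold (adjusted p = 1.65e-05). All 3 probe sets of Ccnd1 were lower in hepatocytes than in MSC and higher in MLC than in hepatocytes, each called in the fit over probe sets.

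Ccnd2 (chr6:127125162-127152188) was the member with the widest range of group means, 4.86 log2 units. It stood at 9.58, 10.18 and 10.47 in MSC, 11.25, 11.24 and 11.13 in HD28, and 9.93, 9.59 and 10.65 in dHD28. All HD28 arrays lay above all MSC and dHD28 arrays. The difference between HD28 and MSC was 2.19-fold (log2 1.13 ± 0.54) and was not called (adjusted p = 0.221), nor was that between dHD28 and HD28 (log2 -1.15 ± 0.54, adjusted p = 0.191). Here too the hepatocyte arrays, at 4.73, 7.53 and 6.77, enter the pooled error, which was 0.30 without Hepatocyte replicate 1. Without Hepatocyte replicate 1, Ccnd2 was called higher in HD28 than in MSC (adjusted p = 0.0313) and lower in dHD28 than in HD28 (adjusted p = 0.0239). Without Hepatocyte replicate 2 neither difference was called (adjusted p = 0.137 and 0.111). In a fit of only the arrays compared the adjusted p was 0.0444 and 0.0424.

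The 7 Ccnd2 probe sets did not move alike in HD28. In 4 of them, the brightest, the HD28 and MSC arrays did not overlap, with differences from log2 0.89 to 1.13, and the other 3 ranged from -0.06 to 0.51. In hepatocytes all 7 were called lower than in MSC, by 4.91-fold to 13.3-fold. The highest of these folds belongs to the probe set that stands for the gene (log2 -3.73 ± 0.54, adjusted p = 6.57e-05). In MLC it stood at 9.53, 9.97 and 10.08, 11.4-fold above hepatocytes (adjusted p = 0.000107). In a fit with a term for the spike-in class, Ccnd2 was lower by log2 -0.83 in the high class (adjusted p = 0.0618), and Hepatocyte replicate 1, the lowest array, is of that class.

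Ccnd3 (chr17:47505051-47599689), the D cyclin more often kept in differentiated cells, ranged more widely among the MSC arrays than among the stromal group means. It stood at 9.58, 8.21 and 8.15 in MSC, 9.28, 9.27 and 8.86 in HD28, 9.17, 9.64 and 8.60 in dHD28, and 9.04, 9.43 and 8.45 in MLC. These 4 groups overlapped, and HD28 against MSC was log2 0.49 with a 95% interval from -0.32 to 1.30. MSC replicate 1 stood above the other MSC arrays. It is of the high spike-in class, in which Ccnd3 was higher by log2 0.55 (adjusted p = 0.0869), and the part of the class in this spread was not tested.

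In hepatocytes Ccnd3 stood at 7.40, 7.81 and 7.83, below all other arrays. The difference from MSC was log2 -0.97 ± 0.38 (adjusted p = 0.0521) and was not called. It was called without MSC replicate 2 or 3 (log2 -1.18 and -1.22). HD28 and MLC exceeded hepatocytes 2.74-fold (adjusted p = 0.00664) and 2.45-fold (adjusted p = 0.012). The second of these calls ended without MLC replicate 2 (log2 1.06, adjusted p = 0.0573) and with centring on housekeeping genes (log2 0.64, adjusted p = 0.0952), and both ended with the mean over probe sets (log2 0.68 and 0.39) and when tested against a fold of 1.5 (adjusted p = 0.0828 and 0.141). The probe sets of Ccnd3 disagreed: a dim one, with a mean of 3.82, was called higher in HD28 than in MSC (4.72 against 3.47, log2 1.26 ± 0.33, adjusted p = 0.0348) and lower in dHD28 than in HD28 (log2 -1.12, adjusted p = 0.0467), whereas another, with a mean of 6.48, was log2 -0.38 and 0.65 in the same comparisons.

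Cdk4 (chr10:127063535-127067288), the catalytic partner of the D cyclins in most tissues, was lowest in hepatocytes and next lowest in HD28, as was Cdkn2c. It stood at 11.28, 11.06 and 11.17 in MSC, 10.77, 10.58 and 10.30 in HD28, and 11.28, 11.26 and 11.08 in dHD28. Every HD28 array lay below every MSC and dHD28 array, with HD28 replicate 3 the lowest. The differences passed the p threshold but not the fold limit, at log2 -0.62 ± 0.18 for HD28 against MSC (1.54-fold, adjusted p = 0.0473) and log2 0.66 ± 0.18 for dHD28 against HD28 (1.58-fold, adjusted p = 0.0299). Without HD28 replicate 3 they were -0.50 (adjusted p = 0.168) and 0.53 (adjusted p = 0.119). The other 2 Cdk4 probe sets gave -0.83 and -0.75, then 0.86 and 0.87. In the limma fit over all probe sets, HD28 against MSC did not pass the p threshold for these (adjusted p = 0.0524 and 0.0604). Nor did it for the probe set that stands for the gene (adjusted p = 0.0581). In dHD28 against HD28 the values were 0.0365, 0.0254 and 0.036. With the replicate block HD28 against MSC had an adjusted p of 0.052.

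Hepatocytes stood at 7.49, 8.07 and 7.49, 11.2-fold under MSC in Cdk4 (log2 -3.49 ± 0.18, adjusted p = 1.86e-08), with all 3 probe sets called. MLC, at 10.90, 11.27 and 11.26, overlapped MSC and exceeded hepatocytes 10.99-fold (adjusted p = 2.05e-08). HD28 was 7.28-fold above hepatocytes (adjusted p = 1.12e-07), so that its Cdk4 level lay nearer to MSC.

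Cdk6 (chr5:3341004-3531008), the other D cyclin kinase, did not follow Cdk4. Its arrays lay between 7.80 and 8.37 in MSC, 7.86 and 8.07 in HD28, 8.03 and 8.65 in dHD28, 7.83 and 8.07 in hepatocytes, and 7.99 and 8.98 in MLC. Each group overlapped its neighbour in the order of means, hepatocytes included. Hepatocyte against MSC was log2 -0.16, with a 95% interval from -0.67 to 0.36, and 0 of its 3 probe sets were called in any of the 7 comparisons by limma.

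**Figure D2:**
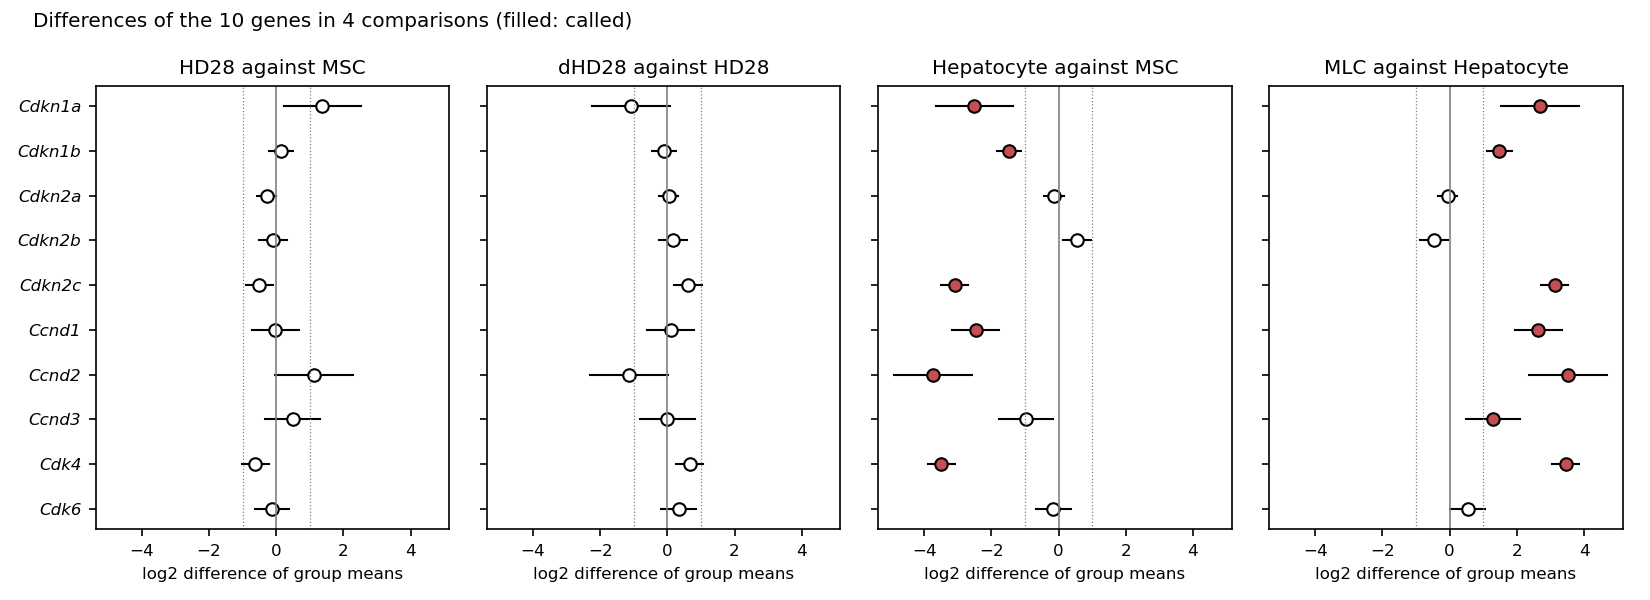
Log2 difference of group means (horizontal axes) for the 10 genes in 4 comparisons, with 95% intervals from the limma model, filled points for called genes and dotted lines at a fold of 2. No point is filled for HD28 against MSC or dHD28 against HD28, 6 are filled below 0 for Hepatocyte against MSC, and 7 above 0 for MLC against Hepatocyte.

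Counted by comparison, 0 of the 10 genes were called in HD28 against MSC (6.77% of all genes, 3.24% higher and 3.52% lower) and 0 in dHD28 against HD28 (8.82% of all genes, 4.63% higher and 4.19% lower), with 4 and 2 at an unadjusted p under 0.05 by limma. The arrays of the groups did not overlap in 5 and 4 of the genes, beside 29.7% and 29.4% of all genes. The median difference of the members was log2 -0.06 and 0.07, near the -0.08 and 0.05 of all genes. In a fit of only the arrays compared 2 were called in each, Cdkn1a and Ccnd2. Of all 18193 genes, this fit called 392 higher and 512 lower in HD28 against MSC, and 793 higher and 703 lower in dHD28 against HD28.

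Against MSC, 6 of the 10 were lower in hepatocytes and 0 higher, where 30.1% of all genes were called, 11.8% higher and 18.3% lower, and the arrays of 8 did not overlap, beside 52.6% of all genes. The median of the members was log2 -1.97 beside 0.04 for all genes. In HD28 against hepatocytes 7 were higher (26.5% of all genes called, 15.3% higher and 11.2% lower) and in MLC against hepatocytes 7 (30.5% called, 18.4% higher and 12% lower). Arrays did not overlap in 9 and 8 of the genes, beside 55.6% and 57% of all genes. These comparisons share the hepatocyte arrays and are not separate evidence. In dHD28 against MSC and MLC against MSC 0 of 10 were called, as were 0% of all genes, with 0 at an unadjusted p under 0.05 by limma and 0 whose arrays did not overlap (4.94% and 5.28% of all genes). In dHD28 against MSC the 95% interval reached past a 2-fold change for Ccnd2 (-1.18 to 1.13), Cdkn1a (-0.87 to 1.44) and Ccnd3 (-0.32 to 1.30). In MLC against MSC it did so for Cdkn1a (-0.97 to 1.34), Ccnd2 (-1.37 to 0.94) and Ccnd3 (-0.49 to 1.14). A 2-fold change of these genes could not be told from none. These intervals use the error pooled over all groups, hepatocytes included.

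Other cell types moved with the hepatocyte group. The mean of 8 Kupffer cell and macrophage genes was 6.36, 7.66 and 7.90 in its arrays and 4.31 to 5.53 in all others. That of 6 liver endothelial genes was 5.94 to 7.15 beside 3.88 to 5.04. That of 6 stellate cell and pericyte genes was 5.86 to 7.36 beside 4.34 to 5.38. The upper ends outside the hepatocyte group, 5.53, 5.04 and 5.38, all belonged to HD28 replicate 3. HD28 replicates 1 and 2 stood at 4.32 and 4.52, 3.90 and 4.34, and 4.44 and 4.46 for these means. The mean of 8 stromal genes was 5.03, 6.49 and 6.27 in the hepatocyte arrays. The mean of 4 lymphocyte and other blood genes was 4.90 to 5.67 beside 3.62 to 4.15, and that of 4 cholangiocyte genes 5.03, 5.78 and 4.95 beside 5.62 to 6.55. Hepatocyte replicate 2 was the highest hepatocyte array for Cdkn1a, Cdkn1b, Cdkn2b, Ccnd1, Ccnd2, Cdk4 and Cdk6. Cdkn2a, Cdkn2c and Ccnd3 were highest in Hepatocyte replicate 3. Replicate 2 was also highest for the stromal, cholangiocyte, and lymphocyte and other blood means. For the stellate cell and pericyte mean it stood at 7.36 beside 7.35 in replicate 3. The Kupffer cell and endothelial means were highest in replicate 3. The 3′ minus 5′ signal of actin, a sign of RNA quality, was log2 0.66, 1.24 and 1.23 in the hepatocyte arrays and 0.94 in HD28 replicate 3, beside 0.077 to 0.44 in the others. In these bulk samples fewer cells of a type and less RNA per cell cannot be told apart, and the part of other cell types and of RNA quality in the differences was not tested.

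**Figure D3:**
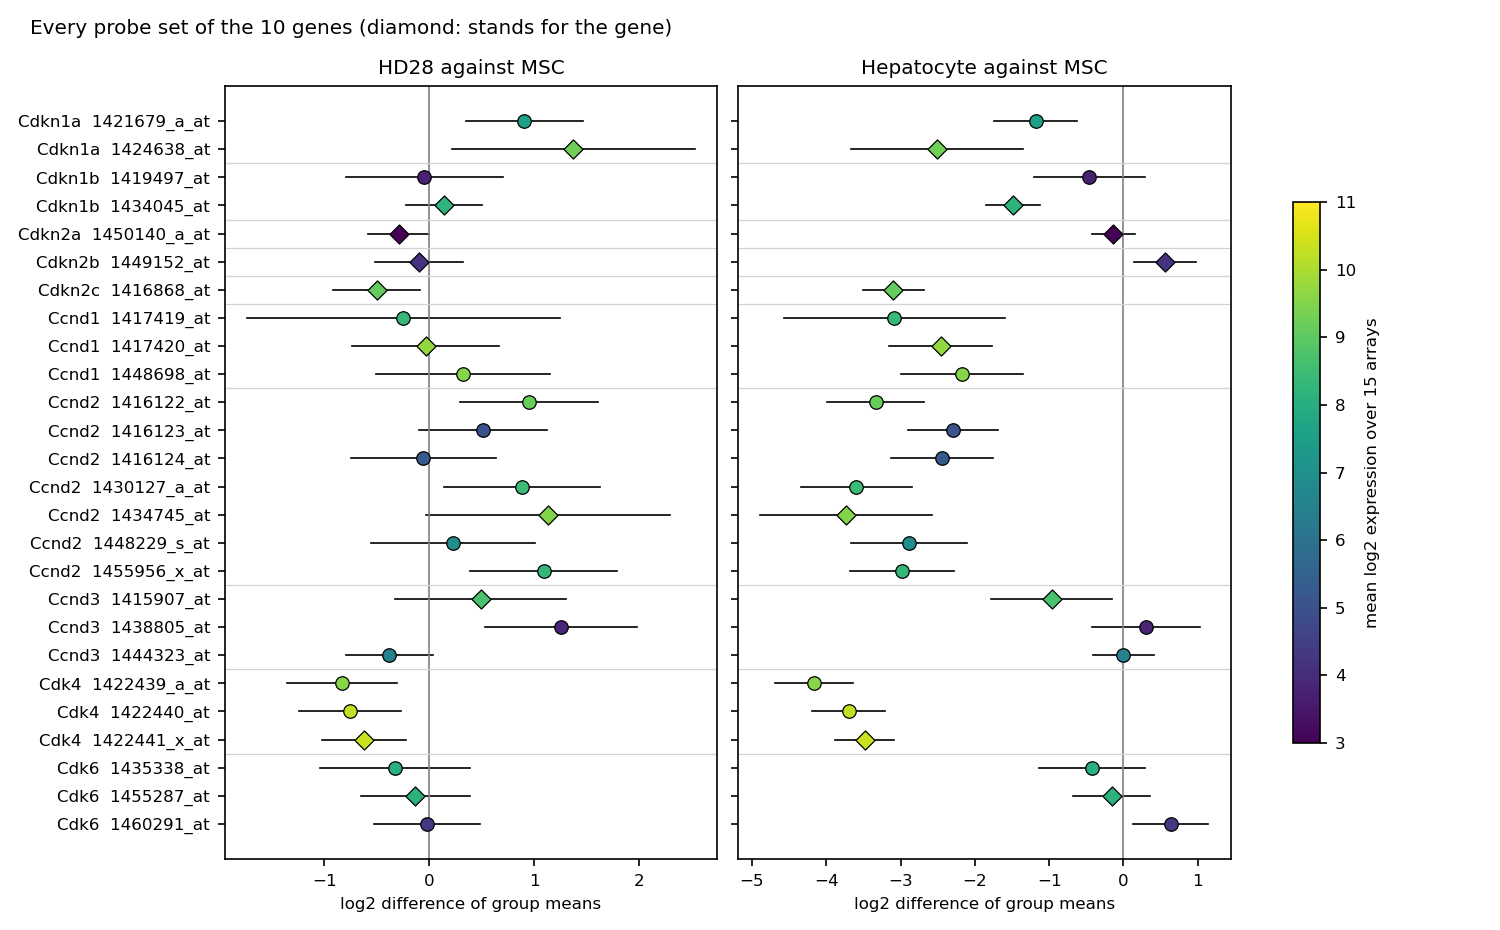
Log2 difference (horizontal axes, with 95% intervals) of each of the 26 probe sets (vertical axis) in HD28 against MSC and in Hepatocyte against MSC, coloured by mean level over 15 arrays, with diamonds for the probe set that stands for the gene. In the hepatocyte comparison every probe set of Cdkn1a, Ccnd1, Ccnd2 and Cdk4 lies below 0, whereas those of Cdk6 and Ccnd3 lie on both sides.

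Genes downstream of these 10 were called in HD28 against MSC and on return, in lists chosen with earlier results of these data known. Of the 10 genes 0 were called in either comparison in the main fit. In fits of only the arrays compared, Cdkn1a and Ccnd2 were called higher in HD28 and lower on return. Of all genes, 3.24% were called higher and 3.52% lower in HD28 against MSC, and 4.63% higher and 4.19% lower on return. Of 14 measured E2F target genes of S phase 11 fell in HD28 and 0 rose (median log2 -1.79, all genes -0.08), but 6 fell without MSC replicate 1 and 7 without HD28 replicate 2 or 3. The replication licensing genes Mcm5 (log2 -2.78 ± 0.51, adjusted p = 0.0035) and Cdc6 (log2 -2.70) and the thymidine kinase Tk1 (log2 -2.56) are examples. Of 8 mitotic markers 8 fell, and at least 7 without any 1 array, with the survivin gene Birc5 at log2 -2.57 and the kinases Plk1 at -2.54 and Aurka at -2.36. On return to MSC medium 12 of 14 and 8 of 8 rose. Against hepatocytes, 12 of 14 and 8 of 8 were higher in HD28, beside 15.3% of all genes higher and 11.2% lower.

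Nearer to the members, 4 of 8 genes of the Cdk2 module fell in HD28 (2 without MSC replicate 1 or HD28 replicate 2) and 0 rose, beside 3.52% and 3.24% of all genes. Ccne1 is in this list and the S phase one. The genes that fell include cyclin A2 (Ccna2, 4.80-fold, adjusted p = 0.00144) and the E cyclins Ccne1 (2.91-fold) and Ccne2 (2.50-fold). On return 5 of 8 rose and 0 fell, beside 4.63% and 4.19% of all genes. Of 13 pocket protein and E2F genes 4 fell and 1 rose in HD28, beside 3.52% and 3.24% of all genes. Without MSC replicate 1 or HD28 replicate 2 or 3, 2 fell. The atypical repressors E2f7 (log2 -2.32) and E2f8 (log2 -2.14) fell, and Rbl2, the pocket protein of resting cells, rose 2.33-fold (adjusted p = 0.008), but was not called without MSC replicate 1. On return 4 rose and 1 fell, beside 4.63% and 4.19% of all genes, with E2f7 5.62-fold and E2f8 4.20-fold higher. The other inhibitors Cdkn1c and Cdkn2d were not called in HD28 (Cdkn2d log2 -0.41, adjusted p = 0.384), and Cdkn2d was 6.95-fold lower in hepatocytes than in MSC (adjusted p = 2.02e-06).

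Genes that act on some of the members also moved. Of 5 measured genes that mark Cdkn1b protein for destruction 2 fell in HD28 and 0 rose, beside 3.52% and 3.24% of all genes, and 3 were not called. The F-box gene Skp2 fell 3.88-fold (adjusted p = 0.00483) and its cofactor Cks1b fell 3.07-fold (adjusted p = 0.000345). On return both rose, by 4.85-fold and 3.08-fold, and 0 of 5 fell, beside 4.63% higher and 4.19% lower of all genes. The Cdkn1b transcript was level, and Cdkn1b protein was not measured. Of 9 growth factor inducers of D cyclins 4 fell in HD28 (2 without HD28 replicate 1, 2 or 3) and 0 rose, beside 3.52% of all genes lower and 3.24% higher. Those that fell include the AP-1 gene Fosl1 (4.64-fold), the Ets factor Etv5 (4.30-fold) and Egr1 (3.73-fold). Among the D cyclins Ccnd1 was level (log2 -0.03), and Ccnd2 (log2 1.13) and Ccnd3 (log2 0.49) were higher in HD28 but not called. On return 3 of 9 rose, with Etv5 4.70-fold higher.

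Of 15 genes of p53 and its targets 3 rose in HD28 and 0 fell, but 1 rose without HD28 replicate 1, 2 or 3 or MSC replicate 1, beside 3.24% of all genes. These were the desmosome-associated gene Perp (39.6-fold, adjusted p = 7.05e-08), Trp53inp1 (15.6-fold, log2 3.96 ± 1.05, adjusted p = 0.0284) and the death receptor Fas (2.95-fold, adjusted p = 0.0411). The list median was log2 0.88, with Cdkn1a at 1.37 outside the list. On return 4 of 15 fell and 0 rose, beside 4.19% lower and 4.63% higher of all genes, with Perp 38.8-fold lower. Only 1 fell without HD28 replicate 1 or 2 or dHD28 replicate 1 or 2. In hepatocytes the list moved both ways, 3 higher and 4 lower than MSC, beside 11.8% and 18.3% of all genes. Perp was 166-fold higher there (adjusted p = 5.99e-10), while Phlda3 was 12.4-fold lower (adjusted p = 9.15e-06) and Cdkn1a was also lower.

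**Figure D4:**
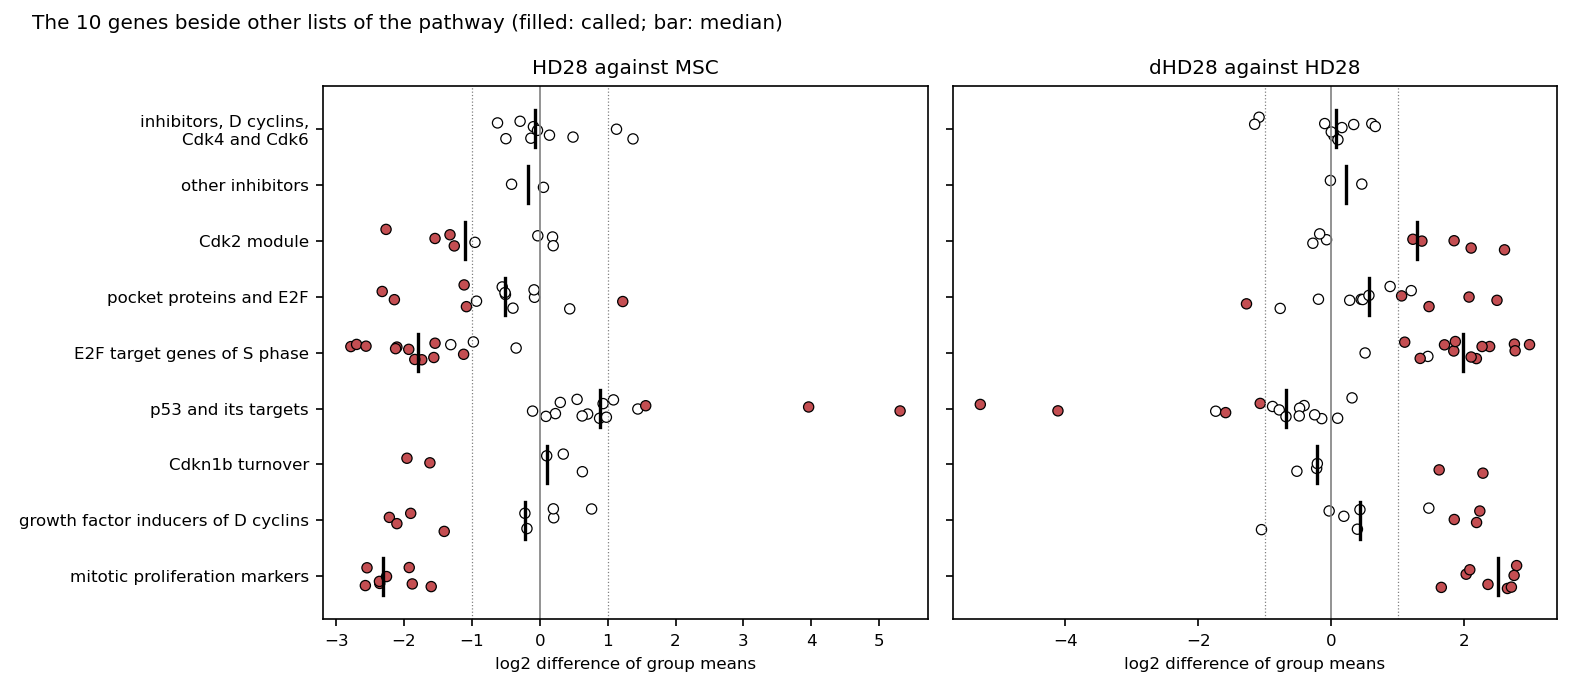
Log2 differences (horizontal axes) of the 10 genes and of 8 other lists of the pathway (rows, 1 point per gene, bar at the median) in HD28 against MSC and dHD28 against HD28, with filled points for called genes and dotted lines at a fold of 2. No point of the 10 genes is filled, whereas those of the mitotic markers are all filled, below 0 in HD28 and above 0 on return.

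The moves to MSC medium, from HD28 to dHD28 and from hepatocytes to MLC, are called returns here, although the hepatocytes came from DMEM/F12. The changes on these returns were also set against each other. This contrast is close to HD28 against Hepatocyte, since 0 genes were called between MSC and either dHD28 or MLC, and it adds no separate evidence. The MLC return included TGF-β1 and the dHD28 return did not, so that starting state and treatment cannot be told apart. From hepatocytes to MLC, Cdk4 rose by 3.46 log2 units and from HD28 to dHD28 it was higher by 0.66, and the difference of these changes was log2 2.80 ± 0.26 (adjusted p = 8.58e-06). For 6 of the 10 genes, Cdkn1a, Cdkn1b, Cdkn2c, Ccnd1, Ccnd2 and Cdk4, that difference was called, beside 23.7% of all genes called, 13.8% in this direction and 9.96% in the other. Ccnd3 differed by 1.29 (adjusted p = 0.0873) and was called without MSC replicate 1 (adjusted p = 0.0271), with array weights (adjusted p = 0.0345) and in a fit of only the arrays compared (adjusted p = 0.0388). Ccnd1 lost its call with the probe set of largest variance (log2 2.59, adjusted p = 0.0657). Cdkn1a and Ccnd2 had the opposite signs in the 2 returns, 2.69 and 3.52 from hepatocytes and -1.09 and -1.15 from HD28, where neither of the latter was called.

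The genes with the patterns most like those of the members of each role with the highest F were found by Pearson correlation over the 15 arrays, which share their groups, so that any gene low in hepatocytes correlates. For Cdkn2c these were Rps26 (r = 0.993), Tcaf1 (0.990) and Prrx2 (0.990). For Ccnd1 they were Tm4sf1 (0.984), Ybx3 (0.980) and Lmna (0.980), and for Cdk4 Gpx7 (0.995), Cdc23 (0.994) and Rps26 (0.994).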

How the data were processed

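Expression was measured in 15 samples with 1-colour Affymetrix Mouse Genome arrays, from Trizol-extracted RNA per the labels. The authors deposited log2 values for 45101 probe sets made by RMA (no version given), per the submitters' processing notes. As a method RMA subtracts background, quantile-normalises and pools the probes of a set. Base 2 was inferred from the range of values (lowest 1.32), since no source names it. The number of arrays limits the precision. The genome build was not given in the sources used here.

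Of the probe sets, 34945 carried 1 gene symbol, 932 several, 9160 none, and 64 were controls. Gene IDs of 34741 matched RefSeq (GRCm38.p6), with 0 symbols updated. Model of 5 group means: limma 3.58.1, R 4.3.3, lmFit and eBayes, 10 residual degrees of freedom, two-sided p adjusted by Benjamini-Hochberg over all genes, or over all named probe sets for single probe sets. The model was tested on simulated data in which each gene had the same spread in all 5 groups. That test could not show how unequal spread between groups affects the calls. Promoter windows come from RefSeq for 8 of the 10 genes. Figures were drawn with matplotlib 3.10.9.

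Same-number arrays of HD28 and dHD28 deviated together (correlations 0.32, 0.28 and 0.12), and those of dHD28 and MLC too (0.21, 0.78 and 0.60). In every other pair of groups compared at least 1 pair was under 0.1. The labels give no shared animal, batch or day.

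The genes and lists were chosen with earlier results of these data known. The rule for names took all 10 genes, the 3 best correlated genes for the top member of each role, and up to 3 called genes per list, or the largest where none was called. The disagreeing Ccnd3 probe sets and Cdkn1a beside the p53 list were singled out after their values were seen. Alternatives were other choices of probe set, a filter on dim genes, 3 normalizations, trend and robust options, array weights, fits of only the arrays compared, other thresholds, a block for the replicate number or spike-in class, and leaving out each array. Another 2 were chosen after seeing the data: the spike-in block without HD28 replicate 3, and a fit without hepatocyte arrays.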

Additional observations from a re-analysis of the deposited data

Results flagged for a closer look

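The change on return, MLC minus Hepatocyte against dHD28 minus HD28, differed for 6 genes by a contrast of the limma model. The MLC return included TGF-β1 and the dHD28 return did not, so that starting state and treatment cannot be told apart. Since dHD28 and MLC had 0 genes called against MSC, the contrast nearly restates HD28 against Hepatocyte and is not separate evidence. The difference was log2 3.77 for Cdkn1a (3.88 in HD28 against Hepatocyte), 1.58 for Cdkn1b (1.63), 2.52 for Cdkn2c (2.60), 2.53 for Ccnd1 (2.43), 4.67 for Ccnd2 (4.86) and 2.80 for Cdk4 (2.86), with adjusted p between 8.58e-06 for Cdk4 and 0.0021 for Cdkn1a. Groups of 3 arrays were too small for a formal test of single outlying arrays. HD28 replicate 3, which stood apart in hepatocyte genes, is described above, and each array was left out in turn.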

How the results depend on the processing

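Of 2416 values of the 10 genes under alternatives, 2379 kept their side of the threshold, 27 became called, 10 lost their call and 0 called values changed sign, while 69 values that were never called did. In HD28 against MSC the count of called genes, 0, became 1 with no fold limit (Cdk4) and 2 with only the arrays compared or without hepatocyte arrays (Cdkn1a and Ccnd2), and 0 to 1 with each array left out. In dHD28 against HD28 the count of 0 became 2 under each of these 3 settings, and 0 to 1 with each array left out. Fits of only the arrays compared and without hepatocyte arrays keep the differences themselves and change the pooled error. Counts of the other comparisons stayed within 1.5 times. With the replicate block the counts were 0 in HD28 against MSC, 0 in dHD28 against HD28, 6 in Hepatocyte against MSC and 7 in MLC against Hepatocyte, and no call of a gene changed. Centring on housekeeping genes turned the split of all genes in Hepatocyte against MSC from 2149 higher and 3327 lower to 4552 and 1949, with 1 higher (Cdkn2b) and 5 lower among the 10 genes. In MLC against Hepatocyte the split went from 3353 higher and 2188 lower to 1914 and 5381. It went from 2786 and 2039 to 1887 and 3717 in HD28 against Hepatocyte, from 590 and 641 to 725 and 467 in HD28 against MSC, from 843 and 762 to 572 and 1033 in dHD28 against HD28, and from 2502 and 1812 to 1689 and 3643 for the difference of the returns. Dim probe sets, Cdkn2a above all, limit what can be said of their genes.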
